A study of Mus musculus with 37 samples.

Results

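The 10 genes described here are used as markers of oligodendrocyte precursors and newly formed oligodendrocytes: Pdgfra, Cspg4, Gpr17, Olig1, Olig2, Bmp4, Enpp6, Bcas1, Neu4 and Itpr2. Which cells of the tissue gave their RNA was not tested. They were chosen by name, with earlier results of these data known. Each was found once among the 56980 genes of the deposited count table through its Ensembl identifier. All 10 passed the filter on low counts. The study measured polyadenylated RNA from brain of male wild-type C57BL/6J mice, and its title names the medial prefrontal cortex. Mice were adult, with treatment starting on postnatal day 55, or adolescent, with treatment starting on postnatal day 25. They received oral antibiotics or stayed on water, and they were injected under the skin with morphine at 15 mg/kg or with saline for 5 days.

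Of 37 libraries, 35 had at least 1000000 counts and are used here. The adult groups held 4 libraries on antibiotics with morphine, 5 on antibiotics with saline, 5 on water with morphine and 3 on water with saline. The adolescent groups held 5, 3, 5 and 5 libraries in the same order of treatments. Totals ranged from 10630727 to 31560468 counts, with a median of 15910823. The 2 libraries left out held 58764 counts (adult antibiotics morphine replicate 4) and 25165 counts (adolescent antibiotics saline replicate 3), with 11 and 12 counts over all 10 genes. Nothing in the labels says that replicates were separate animals, so p-values measure the spread between these samples, which may be technical. Slc17a7, which loads glutamate into synaptic vesicles of cortical neurons, ranged over 1505 to 1678 normalised counts per 1000000 (CPM) in adults. In adolescents it ranged over 1494 to 1937 CPM, apart from 1172 CPM in adolescent water saline replicate 1, the lowest of all 35 libraries. Camk2a, another excitatory neuron marker, was also lowest in that library, at 2314 CPM, against at least 3027 CPM in every other library. Adolescent water saline replicate 1 stood apart, with 53.3 CPM of the striatal dopamine receptor Drd2, against at most 2.69 CPM in every other library, and with 8551 CPM of the myelin protein gene Mbp, against at most 2893 CPM in the others. The age, morphine and antibiotic comparisons of the 10 genes in edgeR are therefore given with that library (35 libraries) and without it (34 libraries). Fold changes of genes from other lists, and correlations, are from the 34, and the calls of other tools are from the 35.

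Oligodendrocyte precursors are dividing glial cells that persist in the adult brain and respond to platelet-derived growth factor (PDGF) through the receptor encoded by Pdgfra. When they leave the cell cycle they lose that receptor and pass through a short premyelinating stage, marked by genes such as Gpr17, Enpp6 and Bcas1, before they make myelin. In the rodent cortex new oligodendrocytes are still being added through adolescence and into adult life. In whole tissue, fewer cells of a type and less RNA per cell cannot be told apart.

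Pdgfra, Cspg4, Olig1 and Olig2 are on from the precursor state. Pdgfra encodes the PDGF receptor alpha, Cspg4 the NG2 proteoglycan of the precursor surface, and Olig1 and Olig2 the basic helix-loop-helix transcription factors that the lineage keeps from precursor to mature cell. Gpr17 encodes a G protein-coupled receptor of cells about to differentiate, and Bmp4 a secreted bone morphogenetic protein made by committed precursors. Enpp6 encodes a choline phosphodiesterase of newly forming oligodendrocytes, Bcas1 a protein of early myelinating cells, Neu4 a sialidase and Itpr2 a calcium release channel of the endoplasmic reticulum.

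Upstream sequence is shown for Pdgfra, Neu4 and Enpp6, 3 of the genes that were lower in adults below. It covers the 250 bases before the gene start in RefSeq on GRCm38.p6, in which 7 of the 10 genes were matched. The Pdgfra window is chr5:75152001-75152250, the Neu4 window chr1:94020243-94020492 and the Enpp6 window chr8:46986637-46986886, all on the plus strand. Capitals mark ACAAT, the core of the motif that SOX family transcription factors bind, searched on both strands (reverse complement ATTGT).
Pdgfra: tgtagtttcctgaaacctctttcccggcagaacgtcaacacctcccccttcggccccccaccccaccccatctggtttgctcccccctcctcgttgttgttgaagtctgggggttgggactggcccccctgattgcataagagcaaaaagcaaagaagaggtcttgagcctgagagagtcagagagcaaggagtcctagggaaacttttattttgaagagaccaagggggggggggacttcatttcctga
Neu4: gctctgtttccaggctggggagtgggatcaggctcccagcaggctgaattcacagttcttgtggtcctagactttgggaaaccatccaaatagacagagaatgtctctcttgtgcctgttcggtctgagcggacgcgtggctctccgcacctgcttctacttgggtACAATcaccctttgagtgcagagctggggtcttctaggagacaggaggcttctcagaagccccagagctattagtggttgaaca
Enpp6: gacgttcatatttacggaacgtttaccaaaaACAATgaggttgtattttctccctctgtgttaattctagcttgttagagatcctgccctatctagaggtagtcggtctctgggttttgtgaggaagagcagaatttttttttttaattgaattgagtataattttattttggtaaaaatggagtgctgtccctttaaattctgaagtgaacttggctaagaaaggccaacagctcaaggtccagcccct
The windows of Neu4, Enpp6, Cspg4 and Olig2 each held 1 ACAAT match, and those of Pdgfra, Bmp4 and Itpr2 held 0. Of 32851 windows of the same length in the RefSeq table, 27.7% held it. The palindromic E-box CAGCTG, a form that basic helix-loop-helix proteins bind, was in 0 of the 7 windows and in 13.0% of all windows. These matches are letters in a window and show no binding.

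Per kilobase of exon and without that library, Olig1 had the highest level of the 10, with a median of 34.5 CPM per kb over the 34 libraries, followed by Bcas1 at 15.6, Gpr17 at 10.9, Olig2 at 6.96 and Pdgfra at 4.46 CPM per kb. Neighbours in that order overlapped over libraries: the lowest Bcas1 library (10.3 CPM per kb) was below the highest Gpr17 library (15.1), the lowest Gpr17 library (7.34) below the highest Olig2 library (9.98), and the lowest Olig2 library (4.90) below the highest Pdgfra library (5.24). Olig1 and Bcas1 overlapped too, with 21.8 CPM per kb in the lowest Olig1 library. Bmp4, Cspg4, Neu4 and Itpr2 had medians of 1.56, 1.55, 1.55 and 1.52 CPM per kb and could not be ordered. Enpp6 had the lowest median, at 0.873 CPM per kb (range 0.449 to 2.42). Its range overlapped those of Bmp4, Cspg4, Neu4 and Itpr2, whose lowest libraries were at 0.690, 1.21, 1.21 and 1.28 CPM per kb. The lowest count of any of the 10 in a used library was 24, for Bmp4. Exon lengths came from an annotation older than the one used for counting.

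Some of these genes share exon bases with a gene on the opposite strand. Whether reads were counted by strand is not known here, so reads from such bases cannot be assigned with certainty. Gpr17 shares 188 of its 5195 exon bases with Lims2, Olig1 shares 157 of 2162 with the noncoding gene Gm15966, and Bcas1 shares 440 and 34 of 3775 with the antisense genes Bcas1os1 and Bcas1os2. Pdgfra shares 456 and 166 of 10024 with Gm42802 and Gm42803, and Bmp4 shares 89 of 2248 with Gm15217. Cspg4, Olig2, Enpp6, Neu4 and Itpr2 share none.

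**Figure D1:**
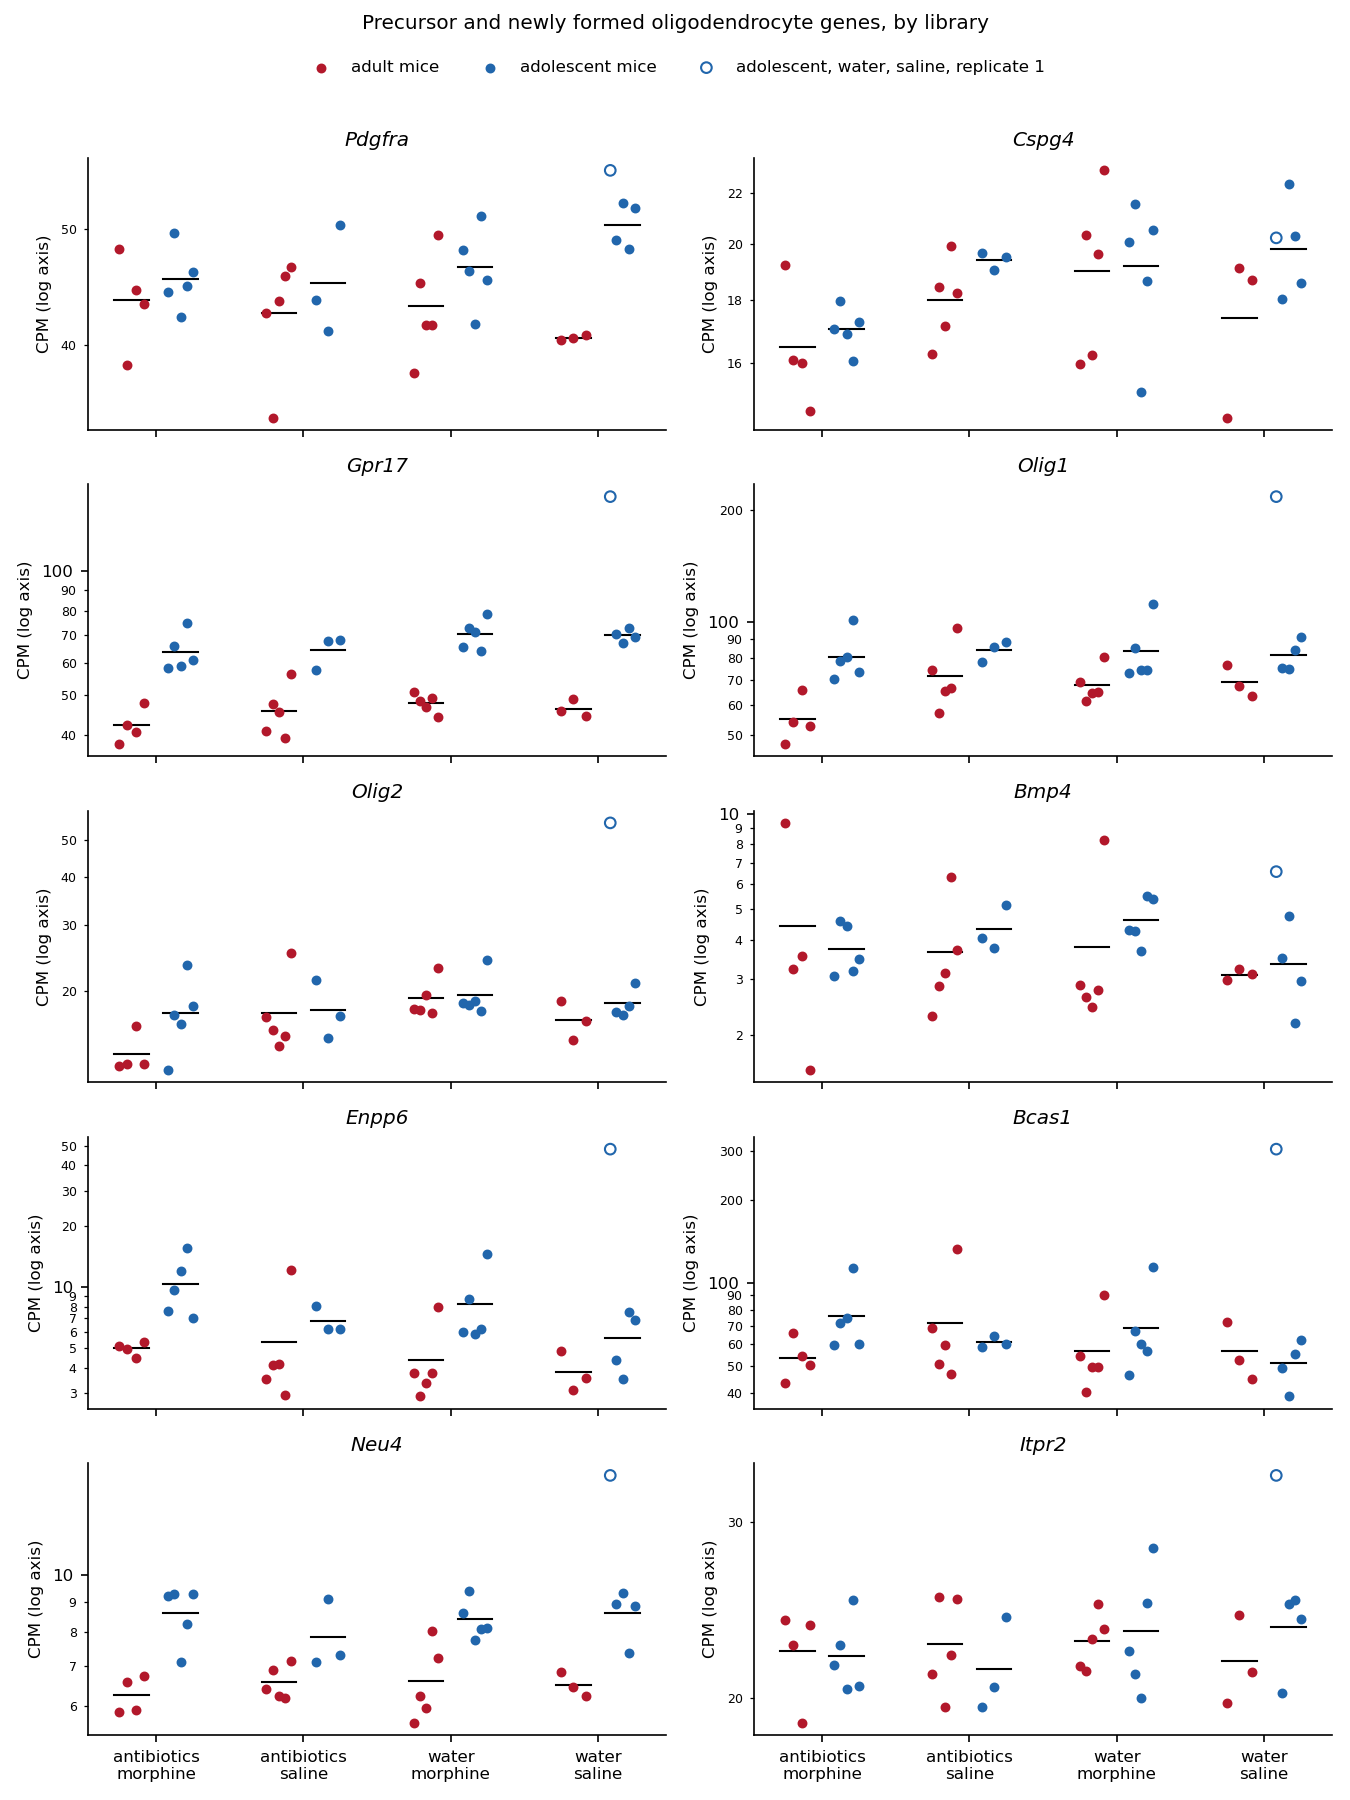
Level of each of the 10 genes in every library, in CPM on a log axis, by drink and injection, with adult libraries in red beside adolescent libraries in blue. Black lines are group means without adolescent water saline replicate 1, which is drawn as an open circle. For Gpr17 every adult point (38.1 to 56.2 CPM) lies below every adolescent point (57.5 to 151 CPM).

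The age comparison asked how the 10 genes differed between adult and adolescent mice, averaged over the 4 combinations of drink and injection. Gpr17, Neu4, Olig1, Pdgfra and Enpp6 were lower in adults, and the other 5 genes did not pass. The count was 5 of 10 lower and 0 higher with 35 libraries, where 20.3% of all 19332 genes passed in either direction and 11.2% were lower in adults. It was also 5 lower and 0 higher with 34 libraries, where 25.3% of 19253 genes passed and 13.2% were lower. Because the 10 genes were chosen with earlier results of these data known, these counts describe the set and are no independent test. The median log2 fold change of the 10 genes was -0.31 with 35 libraries and -0.14 with 34, against 0.0035 and 0.01 over all genes tested.

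Gpr17 had 38.1, 45.7 and 56.2 CPM (lowest, median and highest) in the 17 adult libraries, against 57.5, 67.9 and 151 CPM in the 18 adolescent libraries. Every adult library was below every adolescent one, as for 0.0776% of the genes tested (0.14% without adolescent water saline replicate 1). The mean was 45.7 ± 4.60 CPM in adults and 67.2 ± 6.05 CPM in adolescents (SD, n = 17 each, without that library). The log2 fold change was -0.63 (SE 0.09, adjusted p = 5.87e-06, edgeR) with 35 libraries and -0.55 (SE 0.04, adjusted p = 4.09e-11, edgeR) with 34. Lims2, with which it shares exon bases, was also lower in adults (log2 fold change -0.33, SE 0.04, adjusted p = 1.7e-07 in edgeR, 34 libraries).

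Neu4 had 5.61, 6.41 and 8.04 CPM in adults, against 7.12, 8.74 and 14.7 CPM in adolescents. Of the 17 adult libraries 14 were below every adolescent one, so the groups overlapped at their edges. The fold change of Neu4 on the log2 scale was -0.42 (SE 0.07, adjusted p = 5.27e-05, edgeR) with 35 libraries and -0.36 (SE 0.06, adjusted p = 6.22e-06, edgeR) with 34. The direction and size differed little between the sets of libraries.

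Enpp6 had 2.88, 4.11 and 12.2 CPM in adults, against 3.50, 7.29 and 48.1 CPM in adolescents. Of the 17 adult libraries 4 were below every adolescent one, and adult antibiotics saline replicate 5 was above most adolescent libraries. The log2 fold change was -1.05 (SE 0.30, adjusted p = 0.0143, edgeR) with 35 libraries and -0.71 (SE 0.20, adjusted p = 0.00836, edgeR) with 34. It was the most negative fold change of the 10 in both fits, and with a term for islet reads added it did not pass (log2 fold change -0.99, adjusted p = 0.0521, edgeR). That term marks 7 adolescent libraries with counts of pancreatic islet hormone genes.

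Olig1 had 47.2, 65.5 and 96.3 CPM in adults, against 70.3, 79.8 and 217 CPM in adolescents. Of the 17 adult libraries 13 were below every adolescent one. The log2 fold change was -0.44 (SE 0.12, adjusted p = 0.00901, edgeR) with 35 libraries and -0.33 (SE 0.07, adjusted p = 0.00127, edgeR) with 34.

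Pdgfra had 34.8, 42.5 and 49.4 CPM in adults, against 41.1, 47.1 and 55.9 CPM in adolescents. The ranges overlapped, with 6 of 17 adult libraries below every adolescent one, and the change was small. The log2 fold change was -0.15 (SE 0.04, adjusted p = 0.00694, edgeR) with 35 libraries and -0.14 (SE 0.04, adjusted p = 0.00751, edgeR) with 34. Pdgfra is also expressed by fibroblasts of the meninges: of 7 fibroblast markers 0 passed with 35 or 34 libraries in edgeR (1 and 0 at an unadjusted p under 0.05), and 0 passed in DESeq2 and limma-voom. Their summed level was 19.5 to 204 CPM in adults and 21.6 to 92.9 CPM in adolescents, and their part in the Pdgfra level was not tested.

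The other 5 genes had log2 fold changes below 0 that did not pass. Bcas1 was at -0.35 (SE 0.23, adjusted p = 0.297, edgeR) with 35 libraries and at -0.10 (SE 0.15, adjusted p = 0.675, edgeR) with 34. Olig2 was at -0.27 (SE 0.14, adjusted p = 0.169, edgeR) and -0.14 (SE 0.08, adjusted p = 0.222, edgeR). Olig2 had 12.7, 16.7 and 25.3 CPM in adults, against 12.4, 18.3 and 55.6 CPM in adolescents, so the groups overlapped through nearly their whole range. Bmp4 was at -0.16 (SE 0.20) and -0.08 (SE 0.20), Cspg4 at -0.09 (SE 0.05) in both, and Itpr2 at -0.04 (SE 0.06) and -0.01 (SE 0.05). Bcas1 ranged over 40.1 to 132 CPM in adults, against 38.7 to 305 CPM in adolescents. Bmp4 ranged over 1.55 to 9.36 CPM in adults, against 2.18 to 6.57 CPM in adolescents. Cspg4 ranged over 14.4 to 22.9 CPM in adults, against 15.2 to 22.3 CPM in adolescents, and Itpr2 over 18.9 to 25.2 CPM in adults, against 19.6 to 33.4 CPM in adolescents. All 4 of these ranges overlapped. The difference between Olig1, which passed, and Olig2, which did not, was not tested.

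**Figure D2:**
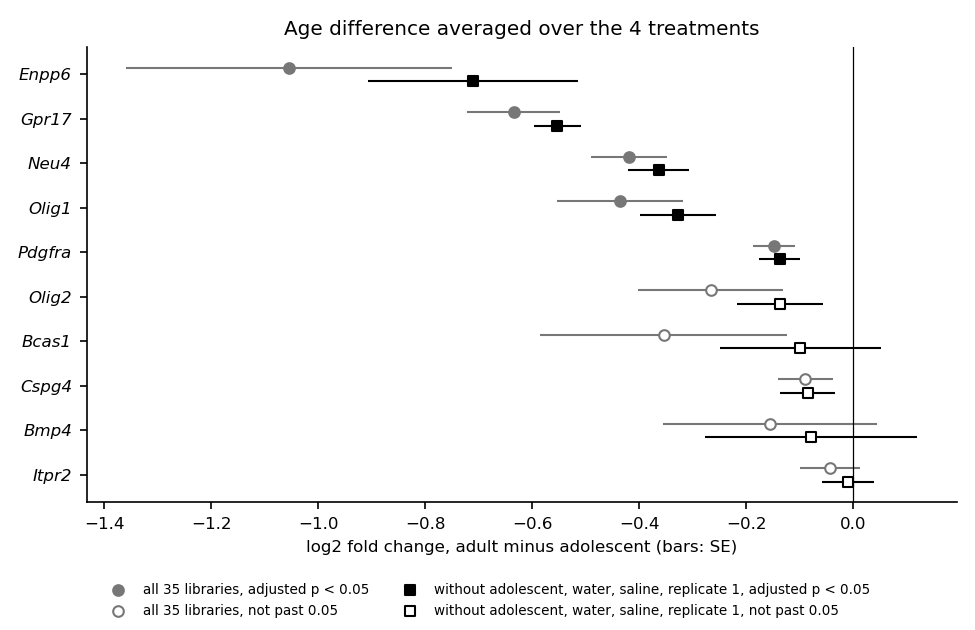
Log2 fold change of each gene, adult minus adolescent, averaged over the 4 treatments, with its SE as a bar, for 35 libraries (grey circles) and for 34 (black squares). Filled marks are past an edgeR adjusted p of 0.05: Gpr17, Neu4, Olig1, Pdgfra and Enpp6 in both fits, with Enpp6 farthest left at -1.05 and -0.71.

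Leaving out 1 further library at a time, from the 35 and from the 34, kept all 5 calls in each of the 35 and 34 fits. Gpr17 ranged over -0.66 to -0.55 in the first and over -0.58 to -0.54 in the second. Without adolescent water saline replicate 1 and adult antibiotics saline replicate 5 together, Olig2 was a sixth gene lower in adults (log2 fold change -0.18, SE 0.07, adjusted p = 0.0478, edgeR).

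Within single treatments the comparison asked whether the age difference was seen in each drink and injection. Gpr17 was below every adolescent library in every adult library of all 4 treatments, as were 0.181% of all genes (0.372% without adolescent water saline replicate 1). On antibiotics with morphine Gpr17 was at 38.1, 42.2, 40.8 and 47.8 CPM in adults, against 58.1, 65.8, 58.9, 74.9 and 60.8 CPM in adolescents. With saline on antibiotics the values were 40.9, 47.5, 45.4, 39.3 and 56.2 CPM in adults, against 57.5, 67.8 and 68.0 CPM in adolescents. The highest adult and lowest adolescent values there were close, at 56.2 and 57.5 CPM. On water with morphine Gpr17 was at 51.0, 48.5, 46.8, 49.3 and 44.3 CPM in adults, against 65.4, 72.9, 71.0, 63.9 and 78.6 CPM in adolescents. With saline on water the values were 45.7, 48.9 and 44.5 CPM in adults, against 151, 70.4, 67.0, 72.7 and 69.0 CPM in adolescents. Apart from the 151 CPM of adolescent water saline replicate 1, the adolescent values of all treatments lay within 57.5 to 78.6 CPM.

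With 34 libraries Gpr17 was lower in adults in each treatment. The log2 fold changes were -0.60 on antibiotics with morphine (SE 0.08, adjusted p = 5e-05), -0.48 on antibiotics with saline (SE 0.09, adjusted p = 0.00148), -0.55 on water with morphine (SE 0.08, adjusted p = 0.000106) and -0.58 on water with saline (SE 0.10, adjusted p = 0.000505), all in edgeR. These held in every fit that left out 1 further library of the groups compared. With 35 libraries Gpr17 passed on water with saline (log2 fold change -0.90, SE 0.19, adjusted p = 0.00601, edgeR) and not in the other treatments, where its log2 fold changes were -0.59, -0.49 and -0.55 (adjusted p = 0.0631, 0.182 and 0.111, edgeR).

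On water with saline 3 of the 10 genes were lower in adults with 35 libraries, where 3.39% of all genes passed and 1.92% were lower: Gpr17, Pdgfra and Neu4. With 34 libraries 2 were lower, Gpr17 and Pdgfra, where 4.56% of all genes passed and 2.65% were lower. DESeq2 called 4 of the 10 with 35 libraries, where 841 of all 19332 genes passed. In Gpr17, Pdgfra and Neu4 every adult library lay below every adolescent one, as for 5.91% of all genes (11.3% without adolescent water saline replicate 1). Pdgfra was at 40.4, 40.6 and 40.8 CPM in adults, against 55.9, 49.0, 52.5, 48.1 and 52.0 CPM in adolescents. Its 3 adult values were close together and below all 5 adolescent ones. The log2 fold change was -0.35 (SE 0.08, adjusted p = 0.0173, edgeR) with 35 libraries and -0.30 (SE 0.08, adjusted p = 0.0314, edgeR) with 34. It did not pass without adult water saline replicate 1, 3 or 5 (adjusted p = 0.0944, 0.0908 and 0.0671, edgeR, 35 libraries), and of the 7 fits that left out 1 further library from the 34 it passed in 1, the fit without adolescent water saline replicate 4 (adjusted p = 0.0351, edgeR).

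Neu4 on water with saline was at 6.85, 6.45 and 6.24 CPM in adults, against 14.7, 8.92, 9.33, 7.36 and 8.86 CPM in adolescents. The change in Neu4 was -0.61 on the log2 scale (SE 0.15, adjusted p = 0.0185, edgeR) with 35 libraries and -0.39 (SE 0.12, adjusted p = 0.0586, edgeR) with 34. Without adult water saline replicate 1, 3 or 5 it did not pass either (adjusted p = 0.0685, 0.0971 and 0.0931, edgeR, 35 libraries). From the 34 it passed when adolescent water saline replicate 4 was left out as well (log2 fold change -0.46, SE 0.13, adjusted p = 0.033, edgeR). In a fit of only these 8 libraries none of the 3 genes passed (adjusted p = 0.295 for Gpr17, 0.0742 for Pdgfra and 0.261 for Neu4, edgeR). Few genes of any kind passed in that fit, 11 of 17958.

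On antibiotics with morphine 0 of the 10 genes passed with 35 libraries, where 1.87% of all genes passed and 1.13% were lower in adults. At an unadjusted p under 0.05 there were 3, against 15.7% of all genes. DESeq2 called 2 of the 10 (583 of all 19332 genes) and limma-voom 3 (897 of 19332). With 34 libraries Gpr17, Neu4 and Olig1 were lower in adults, where 4.23% of all genes passed and 2.72% were lower. Gpr17, Olig1, Enpp6 and Neu4 had every adult library below every adolescent one, as 4.15% of all genes did.

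Neu4 on antibiotics with morphine was at 5.86, 6.57, 5.89 and 6.72 CPM in adults, against 9.20, 9.28, 7.12, 8.25 and 9.28 CPM in adolescents. Its log2 fold change was -0.47 with 35 libraries (SE 0.14, adjusted p = 0.065, edgeR) and with 34 (SE 0.11, adjusted p = 0.00702, edgeR), so the size was the same and the SE smaller. Olig1 was at 47.2, 54.0, 65.8 and 52.7 CPM in adults, against 70.3, 78.9, 80.7, 102 and 73.4 CPM in adolescents. The highest adult and lowest adolescent values of Olig1 were 65.8 and 70.3 CPM. Its log2 fold change was -0.56 with 35 libraries (SE 0.23, adjusted p = 0.224, edgeR) and with 34 (SE 0.14, adjusted p = 0.019, edgeR). From the 34 it did not pass without adolescent antibiotics morphine replicate 4 (adjusted p = 0.0678, edgeR) or without adult antibiotics morphine replicate 1, 2 or 5 (adjusted p = 0.0754, 0.0645 and 0.0625, edgeR). Enpp6 was at 5.13, 4.95, 4.44 and 5.37 CPM in adults, against 7.62, 9.72, 12, 15.5 and 7.02 CPM in adolescents. The groups were apart, while a change of -1.05 on the log2 scale (SE 0.36) did not pass (adjusted p = 0.104, edgeR, 34 libraries).

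On water with morphine 0 of the 10 genes passed with 35 libraries (0.626% of all genes passed and 0.46% were lower in adults). There were 2 at an unadjusted p under 0.05, against 11.8% of all genes. DESeq2 called 1 of the 10 (231 of all 19332 genes) and limma-voom 1 (655 of 19332). Gpr17 alone was lower with 34 libraries (1.52% of all genes passed and 1.14% were lower), and Gpr17 alone had no overlap, as 1.85% of all genes did. Neu4 joined it when adult water morphine replicate 4 was left out as well (log2 fold change -0.42, SE 0.11, adjusted p = 0.033, edgeR). On antibiotics with saline 0 of the 10 passed with 35 libraries (1.39% of all genes passed and 0.998% were lower), with 1 at an unadjusted p under 0.05 (14.7% of all genes). DESeq2 called 0 of the 10 (484 of all 19332 genes) and limma-voom 1 (1314 of 19332). Gpr17 alone was lower with 34 libraries (3.39% of all genes passed and 2.31% were lower), and Gpr17 alone had no overlap, as 6.68% of all genes did. Bcas1 and Itpr2 were above 0 there, at 0.24 (SE 0.31) and 0.08 (SE 0.10), and did not pass.

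**Figure D3:**
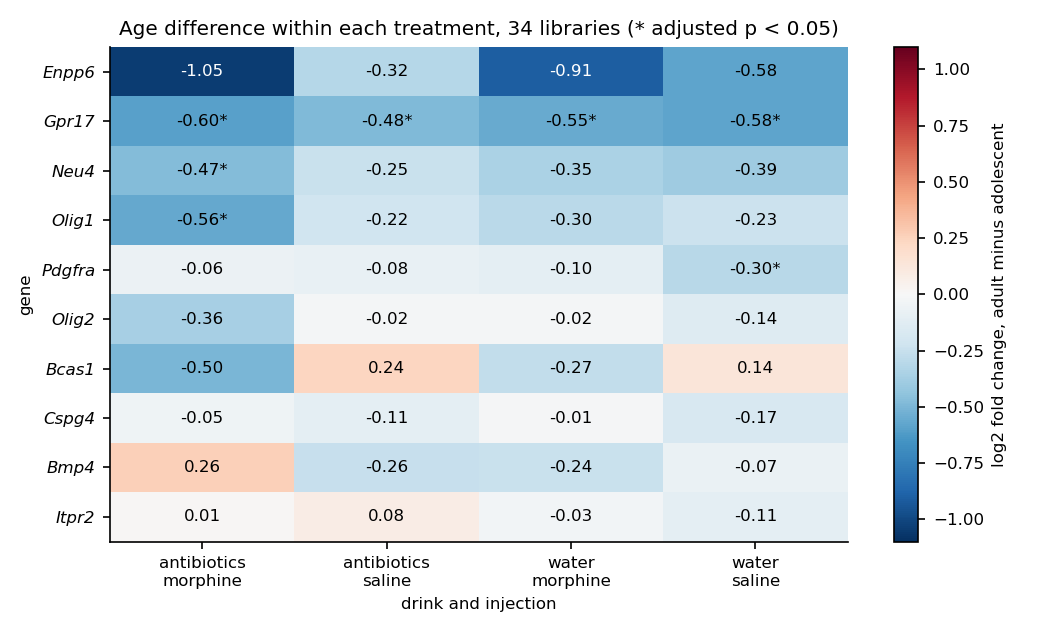
Log2 fold change, adult minus adolescent, of each gene (rows) within each drink and injection (columns), fitted on 34 libraries; colour gives the fold change and an asterisk an edgeR adjusted p under 0.05. Gpr17 has an asterisk in all 4 columns (-0.60, -0.48, -0.55 and -0.58), Neu4 and Olig1 on antibiotics with morphine and Pdgfra on water with saline.

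The difference of the age effect between drinks, averaged over injections, and between injections, averaged over drinks, was tested as an interaction. For antibiotics by age 0 of the 10 genes passed in edgeR (0.0% of all genes passed with 35 libraries and with 34, and 0 of the 10 at an unadjusted p under 0.05). The interaction coefficients of the 10 genes lay between 0.02 and 0.74 with 35 libraries and between -0.12 and 0.16 with 34. For morphine by age 0 of the 10 passed as well (0.00517% of all genes passed with 35 libraries and 0.00519% with 34, and 0 of the 10 at an unadjusted p under 0.05). Its coefficients lay between -0.06 and 0.33 with 35 libraries and between -0.57 and 0.17 with 34, with Bcas1 lowest. DESeq2 and limma-voom with 35 libraries called 0 of the 10 genes in both. The age effects of single treatments were not compared pairwise. A gene that passed in 1 treatment and not in another is therefore not shown to differ between them.

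Morphine was compared with saline within each age and drink, and averaged over them. Of the 10 genes 0 passed in edgeR in the average, with 35 libraries (0.316% of all genes passed) or 34 (1.3%), 0 had an unadjusted p under 0.05 in either, and DESeq2 and limma-voom called 0. With 34 libraries the log2 fold changes, morphine minus saline, lay between -0.11 for Olig1 and 0.30 for Enpp6, with a median of 0.01 and 4 of 10 below 0. Enpp6 had the smallest p (log2 fold change 0.30, SE 0.20, adjusted p = 0.488, edgeR). With 35 libraries, which add 1 saline library, 9 of 10 were below 0 and the range was -0.21 for Olig1 to 0.15 for Bmp4.

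Single morphine comparisons gave 0 of the 10 genes past the threshold too. In adults on antibiotics 0.0% of all genes passed with 35 libraries and 0.0156% with 34, where Olig1 had the smallest p of the 10 (log2 fold change -0.40, SE 0.14, adjusted p = 0.325, edgeR), and 0 and 2 of the 10 genes had an unadjusted p under 0.05 (7.88% and 9.79% of all genes). Olig1 was at 47.2, 54.0, 65.8 and 52.7 CPM with morphine in those adults, against 74.5, 57.0, 65.5, 66.7 and 96.3 CPM with saline. The values overlapped. In adults on water 0.0% of all genes passed in both fits, and the 10 genes lay between -0.02 and 0.32. In adolescents on antibiotics 0.0466% and 0.171% of all genes passed, and the 10 genes lay between -0.20 and 0.59 with 34 libraries. In adolescents on water 0.331% and 0.104% passed, and the 10 genes lay between -0.82 and 0.19 with 35 libraries and between -0.11 and 0.54 with 34. Enpp6 was lowest of the 10 there with 35 libraries and highest with 34. It was at 6.00, 8.75, 5.83, 6.22 and 14.5 CPM with morphine in those adolescents, against 48.1, 4.37, 3.50, 7.55 and 6.88 CPM with saline, so its direction turned with 1 library. At an unadjusted p under 0.05 these 3 comparisons gave 0 of the 10 genes, except Pdgfra in adolescents on water with 35 libraries, where 11.6% of all genes did (log2 fold change -0.15, adjusted p = 0.405, edgeR). DESeq2 and limma-voom called 0 of the 10 in all 4 comparisons.

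Antibiotics were compared with water in the same way. Of the 10 genes 0 passed in edgeR in the average over ages and injections, although 10.2% of all genes passed with 35 libraries and 13.0% with 34. At an unadjusted p under 0.05 there were 2 of the 10 in each fit, against 23.7% and 26.4% of all genes, so their share was no higher than that of all genes, and DESeq2 and limma-voom called 0 with 35 libraries. Gpr17 had the smallest p, with a log2 fold change, antibiotics minus water, of -0.19 (SE 0.09, adjusted p = 0.168, edgeR) with 35 libraries and -0.12 (SE 0.04, adjusted p = 0.0756, edgeR) with 34. From the 34 it passed without adult antibiotics saline replicate 5 (log2 fold change -0.14, adjusted p = 0.0146, edgeR), without adolescent antibiotics morphine replicate 4 (-0.13, adjusted p = 0.0299, edgeR) or without adult antibiotics morphine replicate 5 (-0.13, adjusted p = 0.0388, edgeR). Olig2 passed without adult antibiotics saline replicate 5 (log2 fold change -0.21, adjusted p = 0.0412, edgeR).

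The 4 single antibiotic comparisons gave 0 of the 10 genes past the threshold in edgeR. In adults with morphine 1.92% of all genes passed with 35 libraries and 3.52% with 34, and 0 and 4 of the 10 genes had an unadjusted p under 0.05, against 13.8% and 16.2% of all genes. Olig2 had the smallest p there with 34 libraries (log2 fold change -0.50, SE 0.16, adjusted p = 0.077, edgeR). It was at 12.7, 12.8, 16.2 and 12.9 CPM on antibiotics in those adults, against 18, 17.9, 19.6, 17.5 and 23.1 CPM on water. Every value on antibiotics was below every value on water, as for 2.6% of all genes. Olig2 passed when only these 2 groups were fitted (log2 fold change -0.50, adjusted p = 0.0276, edgeR) and when adult antibiotics morphine replicate 3 was left out of the 34 (-0.59, adjusted p = 0.0482, edgeR). In adolescents with morphine 1.11% and 2.03% of all genes passed, and in adults with saline 0.031% and 0.229%, with 0 of the 10 genes at an unadjusted p under 0.05. In adolescents with saline 0.0103% and 0.0% passed, and 4 of the 10 genes had an unadjusted p under 0.05 with 35 libraries and 0 with 34, against 9.85% and 7.75% of all genes. The lowest log2 fold change of the 10 in that comparison was -1.11 for Enpp6 with 35 libraries and -0.16 for Pdgfra with 34. DESeq2 and limma-voom called 0 of the 10 in all 4 comparisons.

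The interaction of antibiotics and morphine gave 0 of the 10 genes in adults (0.00517% of all genes passed with 35 libraries and 0.00519% with 34) and 0 in adolescents (0.0621% and 0.0623%) in edgeR, and 0 in DESeq2 and limma-voom. At an unadjusted p under 0.05 there was 1 of the 10, Olig2 in adults with 34 libraries, where 4.77% of all genes did (coefficient -0.57, SE 0.23, adjusted p = 0.997, edgeR). All 10 coefficients in adults were below 0, from -0.57 to -0.01 with 35 libraries, and they share the same libraries.

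Other genes listed as markers of these cells moved as follows with age. The cells that gave their RNA in this whole tissue were not tested. Of 13 other precursor genes 9 were lower in adults and 0 higher, with 35 libraries and with 34, and their median log2 fold change was -0.22 and -0.21. Emid1, an extracellular matrix protein gene, was at 2.83, 4.60 and 5.58 CPM in adults, against 6.39, 7.70 and 9.51 CPM in adolescents (lowest, median and highest, 34 libraries). Every adult library was below every adolescent one, as for 0.14% of the genes tested. The change in Emid1 was -0.76 on the log2 scale (SE 0.07, adjusted p = 1.86e-10, edgeR, 34 libraries). Cacng4, an auxiliary subunit of AMPA receptors and calcium channels, was at -0.41 (adjusted p = 6.3e-10, edgeR), and Susd5 at -0.35 (adjusted p = 1.14e-05, edgeR). Of 13 other genes of newly formed oligodendrocytes 10 were lower in adults and 0 higher in both fits, with medians of -0.27 and -0.23. Fyn, a kinase that acts in the start of myelination, was at -0.21 (SE 0.02, adjusted p = 6.32e-10, edgeR), Lims2 at -0.33, and the noncoding gene 9630013A20Rik at -0.85 (SE 0.15, adjusted p = 7.91e-05, edgeR).

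Of 11 other transcription factors of the lineage 4 were lower and 0 higher in both fits: Hes5, a Notch target (log2 fold change -0.30), Zfp488 (-0.38), Nkx2-2 (-0.35) and Sox8 (-0.25, 34 libraries). Zfp488, Myrf and Tcf7l2 are also in the list of newly formed oligodendrocyte genes, so Zfp488 is counted as lower in both lists. Of 18 genes of mature oligodendrocytes and myelin 0 passed with 35 or 34 libraries in edgeR, with 9 and 2 at an unadjusted p under 0.05, while DESeq2 called 4 lower and limma-voom 6 lower with 35 libraries. The median log2 fold change of those 18 was -0.60 with 35 libraries and -0.23 with 34. Whether they differed from the precursor and newly formed lists in their change with age was not tested. Their summed level was 1957, 2284 and 6731 CPM in adults, against 1470, 3137 and 7402 CPM in adolescents (34 libraries), so the groups overlapped. Of 8 proliferation genes 5 could be tested with 35 libraries, where Mki67 and Top2a were lower, and 4 with 34, where Mki67, Top2a and Cenpf were lower. Mki67, a marker of dividing cells, was at 0.246, 0.694 and 1.24 CPM in adults, against 0.491, 1.09 and 2.37 CPM in adolescents, and changed by -0.75 on the log2 scale (SE 0.19, adjusted p = 0.00302, edgeR, 34 libraries).

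Ligands of the receptor encoded by Pdgfra also differed with age. Of 5 genes of PDGF ligands and the related receptor Pdgfrb 2 were lower in adults and 0 higher in both fits. Pdgfa, the main ligand of that receptor, was at 40.5, 47.8 and 49.7 CPM in adults, against 51.1, 55.6 and 61.8 CPM in adolescents (34 libraries). Its adult values all lay below its adolescent values, as for 0.14% of the genes tested. The change in Pdgfa was -0.25 on the log2 scale (SE 0.03, adjusted p = 2.99e-09, edgeR), and Pdgfb was at -0.17 (SE 0.03, adjusted p = 8.78e-05, edgeR). Of 18 genes of the bone morphogenetic protein pathway beside Bmp4, 3 were lower and 2 higher in both fits. The ligand Bmp2 was at -0.38 (SE 0.08, adjusted p = 0.000627, edgeR) and the signal transducer Smad1 at -0.13, while Smad9 was at 0.16 (SE 0.04, adjusted p = 0.00284, edgeR) and the antagonist Chrd at 0.22. The third lower gene was Nog with 34 libraries and Id3 with 35.

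**Figure D4:**
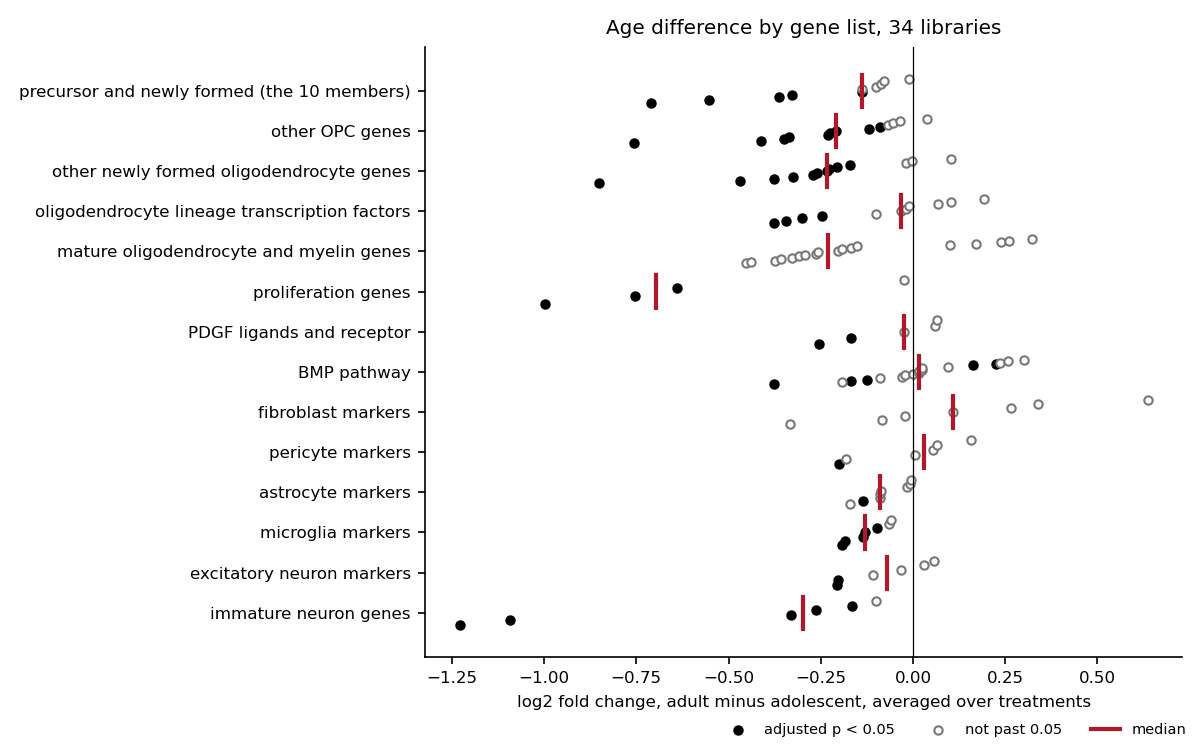
Log2 fold change with age, adult minus adolescent, of each gene (points) in each list (rows), fitted on 34 libraries; filled points are past an edgeR adjusted p of 0.05 and red lines are list medians. Filled points lie left of 0 in the precursor and newly formed lists (9 and 10 of 13), and the 18 mature genes have none. The medians of these lists, the mature one included, lie left of 0, and the difference between lists was not tested.

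Markers of other cells moved with age as well. Of 7 microglia markers 5 were lower in adults and 0 higher in both fits, of 6 immature neuron genes 4 (35 libraries) and 5 (34 libraries) were lower, and of 8 astrocyte markers 1 was lower (Gja1). Of 6 excitatory neuron markers Slc17a7 was lower in both fits (log2 fold change -0.20, adjusted p = 3.29e-08, edgeR, 34 libraries) and Nrgn with 34 (-0.21). Of 6 inhibitory neuron markers Sst was lower (-0.30) and Gad1 higher (0.14) in both fits, and Vip was higher with 34 (0.13). Of 6 pericyte markers Rgs5 was lower (-0.20), and of 6 endothelial markers 0 passed in edgeR (1 at an unadjusted p under 0.05 in each fit), 0 in DESeq2 and 2 in limma-voom. Cd24a and Marcksl1 of the immature neuron list had log2 fold changes of -1.23 and -1.09 (34 libraries). The summed level of that list was 156 to 201 CPM in adults and 222 to 336 CPM in adolescents, with no overlap. The part of these other cells in the values of the 10 genes was not tested.

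With antibiotics, averaged over ages and injections, 4 of the 13 other precursor genes were lower with 35 libraries and 5 with 34, and 0 were higher. Ptprz1, a receptor tyrosine phosphatase of precursors and astrocytes, was at -0.22 (SE 0.03, adjusted p = 3.64e-06, edgeR, 34 libraries), Rlbp1 at -0.28 (SE 0.05, adjusted p = 0.00049, edgeR) and Cacng4 at -0.16 (SE 0.04, adjusted p = 0.00627, edgeR). Of 13 other newly formed oligodendrocyte genes Ust was lower in both fits, and 9630013A20Rik (log2 fold change 0.60, adjusted p = 0.00679, edgeR) and Mycl (0.18) were higher with 34 libraries. Of 7 microglia markers 6 and 7 were lower, and of 8 astrocyte markers 3 were lower in both fits, with Aqp4 at -0.43 (SE 0.06, adjusted p = 1.99e-05, edgeR, 34 libraries). With morphine 0 of the 13 other precursor genes passed with 35 libraries (4 at an unadjusted p under 0.05; DESeq2 called 1 and limma-voom 2), and with 34 Cacng4 was lower (log2 fold change -0.17, SE 0.04, adjusted p = 0.0244, edgeR), as were Pdgfa (-0.10) and Pdgfb (-0.14). Of 7 microglia markers 2 were lower with morphine with 35 libraries and 3 with 34: Cx3cr1 (-0.17), Tmem119 (-0.18) and C1qa (-0.16). Of 6 inhibitory neuron markers Sst was lower in both fits (-0.22, adjusted p = 0.000778, edgeR, 34 libraries), and of 8 astrocyte markers 0 passed in edgeR (2 at an unadjusted p under 0.05 in each fit), DESeq2 or limma-voom.

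The 10 genes differed in how they followed the mature oligodendrocyte genes from library to library. Each library's deviation from its group mean of log2 CPM was compared with the deviation of the summed level of the 18 mature genes over 34 libraries, with permutation within groups (100000 permutations, two-sided, smallest possible p 1e-05, 10 relations). Bcas1 followed it most closely (Pearson r = 0.970, permutation p = 1e-05; Spearman rho = 0.933, permutation p = 1e-05), with r = 0.965 in adults, 0.987 in adolescents and 0.952 without the 2 libraries farthest from the median. Enpp6 had r = 0.890 (permutation p = 1e-05) and rho = 0.798 (permutation p = 1e-05), and 0.823 without those 2. Olig1 had r = 0.884 (permutation p = 2e-05) and rho = 0.839 (permutation p = 1e-05), and 0.812 without those 2. Olig2 had r = 0.755 (permutation p = 3e-05) and rho = 0.647 (permutation p = 0.00016), and 0.641 without those 2. For these 4 genes the Benjamini-Hochberg values over the 10 relations were at most 7.5e-05 for r and 0.0004 for rho.

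Gpr17 had r = 0.518 (permutation p = 0.011, Benjamini-Hochberg 0.022) and rho = 0.374 (permutation p = 0.048, Benjamini-Hochberg 0.097). Without the 2 farthest libraries, adult antibiotics saline replicate 5 and adolescent water morphine replicate 5, its r over both ages was 0.295. Within ages its r was 0.354 in adults and 0.705 in adolescents, and -0.097 and 0.644 without the far library of each age (16 libraries each). The adult relation therefore rests on 1 library, and the adolescent one kept its sign and most of its size. The remaining genes had r = 0.333 for Itpr2, 0.120 for Pdgfra, 0.036 for Bmp4, 0.033 for Neu4 and -0.076 for Cspg4, with permutation p from 0.11 to 0.86 and Benjamini-Hochberg values from 0.18 to 0.86. Their rho lay between -0.270 for Cspg4 and 0.148 for Itpr2 (permutation p from 0.16 to 0.93, Benjamini-Hochberg 0.26 to 0.93).

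**Figure D5:**
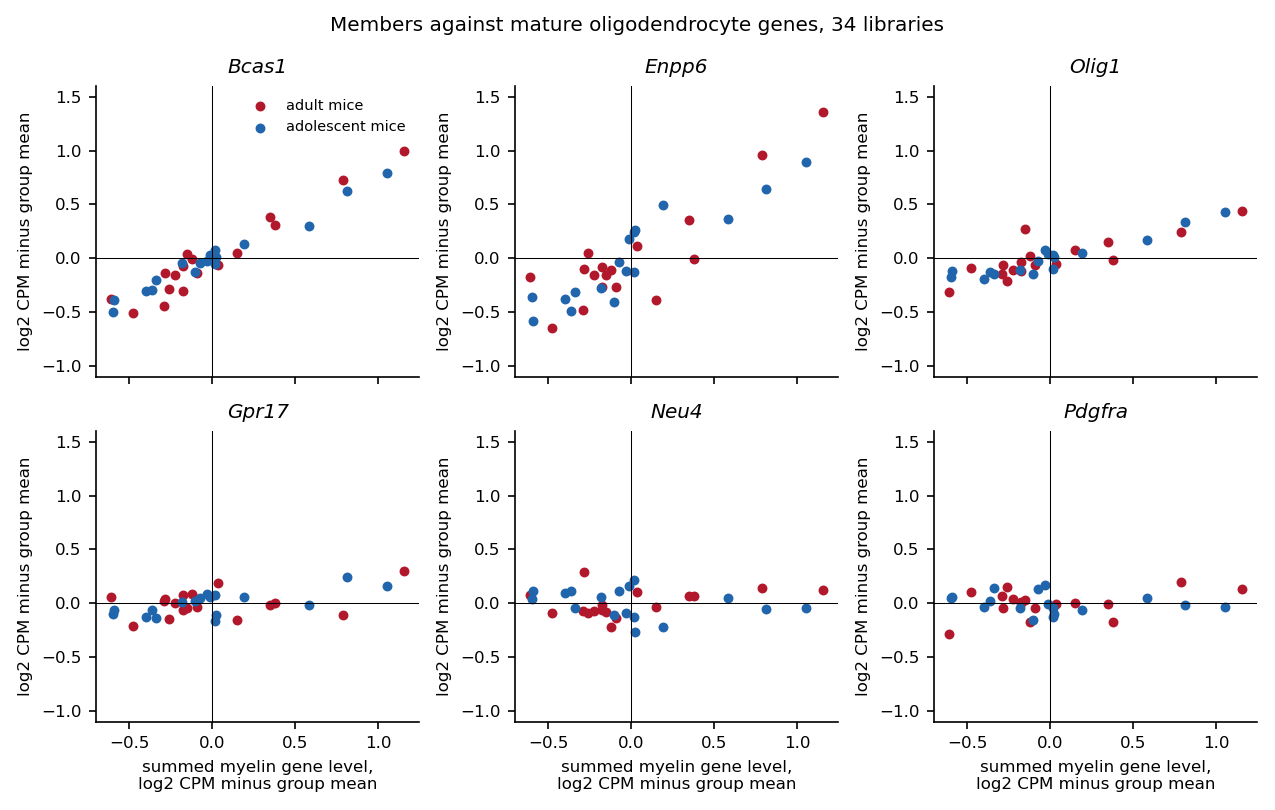
Deviation of each library from its group mean for 6 of the genes (vertical axis, log2 CPM) against the deviation of the summed level of 18 mature oligodendrocyte genes (horizontal axis, log2 CPM), 34 libraries, adults in red and adolescents in blue. Bcas1, Enpp6 and Olig1 rise along the axis (r = 0.970, 0.890 and 0.884), and Neu4 and Pdgfra stay near 0 (r = 0.033 and 0.120).

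Among the 10 genes themselves, the deviations of Bcas1 correlated with those of Olig1 (r = 0.902 over 34 libraries) and of Enpp6 (0.894), and those of Cspg4 with those of Bmp4 (0.624) and Pdgfra (0.460). Pdgfra and Bmp4 had r = 0.548, and Gpr17 with Pdgfra and Neu4 had -0.188 and 0.196. These are descriptions over libraries that share their total count scaling. The genes whose levels over the 34 libraries were most like Gpr17 were Traf3 (Pearson r = 0.914), Apc (0.885), Dcakd (0.875), Marcksl1 (0.862) and Fyn (0.861). Those most like Pdgfra were Gja1 (0.733), Nid1 (0.728), Apcdd1 (0.721), Mob1a (0.721) and C1galt1 (0.719). These correlations include the age difference.

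Adolescent water saline replicate 1 was highest of all 35 libraries in 8 of the 10 genes. Relative to the mean of the other 4 libraries of its group, Enpp6 was 8.62-fold higher (48.1 CPM, against 3.50 to 7.55 CPM), Bcas1 5.95-fold (305 CPM, against 38.7 to 62.2 CPM), Olig2 2.99-fold, Olig1 2.66-fold and Gpr17 2.17-fold. Pdgfra was 1.11-fold higher and Cspg4 1.02-fold, where that library ranked 7 of 35. The summed level of the 18 mature genes in it was 22128 CPM, that of 8 striatal markers 1406 CPM (against at most 213 CPM in any other library) and that of 8 proliferation genes 60.8 CPM (against at most 7.23 CPM). The part of these in its values was not tested, and a single library gives no replicate check.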

How the data were processed

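Polyadenylated RNA from brain was measured. Per the labels' protocols, extraction used Qiagen RNeasy columns and library preparation an ABclonal kit. The deposited table holds raw counts per gene and library, which are whole numbers. STAR 2.7.10a, DESeq2 and mm10 appear in the submitters' processing notes, which name neither the annotation nor a strand setting. GENCODE M21 gave symbols for 52073 of 56980 identifiers, and the 4907 others hold 3.86% of counts. In 52036 of the matched ones the version number is above that of M21, so the count table rests on a later annotation, and no gene coordinates are given from it. Exon lengths and overlaps are those of M21.

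The 35 libraries with at least 1000000 counts entered edgeR 4.0.16 (R 4.3.3): TMM normalisation, filterByExpr on the 8 groups (19332 genes kept), 1 robust quasi-likelihood fit with a mean per group, 19 contrasts, Benjamini-Hochberg adjustment over all genes tested and a threshold of 0.05. Averages weight the 4 strata equally. CPM use TMM-scaled totals, log2 CPM a prior count of 2, and SE is the absolute log2 fold change over the square root of F.

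The 10 genes, the other lists, the tests and the naming rule were chosen with earlier results of these data known. The rule names up to 3 passing genes of each list by smallest p and the 5 genes most like Pdgfra and Gpr17. Sox8, Chrd, Nog and Id3 fall outside it and were named after their values were seen.

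Alternatives were all 37 libraries, DESeq2 1.42.0, edgeR with DESeq2 size factors, no filter, a block for replicate number, limma-voom (limma 3.58.1) with sample weights, a term for the 7 adolescent libraries holding over 20 islet hormone gene counts, only the compared groups, and leaving out each library. Leaving out a further library beside adolescent water saline replicate 1 was added after seeing the data. The procedure was tested on simulated data.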

Additional observations from a re-analysis of the deposited data

Results flagged for a closer look

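Of 60 sets of 1 gene in 1 group of 4 or more libraries, 15 had a library far from the rest. Chance gives about 1 in 20 for a single set, but these sets share libraries, so their number cannot be weighed against that rate. In each of the 15 the far library was the highest.

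Adolescent water saline replicate 1 stood apart in 6 genes: Gpr17 at 151 CPM, Olig1 at 217 CPM, Olig2 at 55.6 CPM, Enpp6 at 48.1 CPM, Bcas1 at 305 CPM and Neu4 at 14.7 CPM. The other 4 libraries of its group reached at most 72.7, 91.5, 21.1, 7.55, 62.2 and 9.33 CPM in the same order.

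Adult antibiotics saline replicate 5 had Olig2 at 25.3 CPM (others 14.3 to 17.2), Enpp6 at 12.2 CPM (2.93 to 4.18) and Bcas1 at 132 CPM (46.7 to 68.7), with a summed level of the 18 mature oligodendrocyte genes of 6731 CPM. Adult water morphine replicate 5 had Bmp4 at 8.28 CPM (2.45 to 2.87), Enpp6 at 7.98 CPM (2.88 to 3.77) and Bcas1 at 90.1 CPM (40.1 to 54.3), with 4141 CPM of the mature genes. Adolescent water morphine replicate 5 had Olig2 at 24.2 CPM (17.8 to 18.9), with 6993 CPM of the mature genes. Adolescent antibiotics morphine replicate 4 had Bcas1 at 113 CPM (59.6 to 74.4), with 7402 CPM of the mature genes. Adult antibiotics morphine replicate 3 had Olig2 at 16.2 CPM (12.7 to 12.9), with 2463 CPM of the mature genes.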

How the results depend on the processing

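The 5 genes lower in adults in the average over treatments passed with all 37 libraries, DESeq2, DESeq2 size factors, no filter, the replicate block and limma-voom, and 4 of them passed with the term for islet reads, where Enpp6 did not (log2 fold change -0.99, adjusted p = 0.0521, edgeR). Within treatments the number of the 10 genes called differed from the 35-library edgeR fit as follows, with the genes that passed among all tested in brackets. On water with saline it was 4 with DESeq2 (841 of 19332) and 0 with only the compared groups (11 of 17958), against 3 (655 of 19332). On water with morphine it was 1 with DESeq2 (231 of 19332), limma-voom (655 of 19332) or only the compared groups (175 of 17485), against 0 (121 of 19332). On antibiotics with saline it was 1 with limma-voom (1314 of 19332) or only the compared groups (350 of 18087), against 0 (268 of 19332). On antibiotics with morphine it was 2 with DESeq2 (583 of 19332), 1 without the filter (269 of 44019) and 3 with limma-voom (897 of 19332). There it was 1 with the islet term (276 of 19332) and 3 with only the compared groups (487 of 17698), against 0 (362 of 19332). For antibiotics in adults with morphine it was 1 with only the compared groups, against 0 (371 of 19332). The cause was not tested.

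Leaving out 1 library gave 5 called genes of the 10 in the age average and 1 to 3 on water with saline. It gave 0 to 1 on water with morphine and on antibiotics with saline, and 0 to 3 on antibiotics with morphine. Over all genes, these fits called 3313 to 4878 in the age average and 172 to 877 on water with saline. They called 57 to 292 on water with morphine, 64 to 652 on antibiotics with saline and 108 to 815 on antibiotics with morphine. From 34 libraries the ranges for the 10 genes were 5 to 6, 1 to 3, 1 to 2, 1 and 2 to 3, with 0 to 2 for antibiotics averaged and 0 to 1 for antibiotics in adults with morphine. Over all genes they were 4356 to 5304, 364 to 868, 148 to 433, 259 to 713 and 380 to 1130 in the same order. For antibiotics averaged they were 1968 to 2830, and for antibiotics in adults with morphine 230 to 933. Itpr2 with age ranged over -0.062 to -0.0104 in the first set and -0.0346 to 0.0104 in the second, and did not pass.

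Over all genes, counts differed by more than 1.5 times as follows in the age comparisons within treatments and in the morphine and antibiotic averages. Counts of other comparisons differed by that much too and are not listed here. Limma-voom called 1909, 655, 1314 and 897 genes with age on water with saline, water with morphine, antibiotics with saline and antibiotics with morphine, against 655, 121, 268 and 362 in edgeR. DESeq2 called 231, 484 and 583 in the last 3 of these, and edgeR called 78, 157 and 232 there with all 37 libraries. Only the compared groups gave 11 on water with saline. Morphine averaged gave 61 in edgeR, 163 in DESeq2, 383 in limma-voom, 22 with all 37 libraries and 31 with the islet term. Antibiotics averaged gave 1975 in edgeR, 3246 in limma-voom and 1313 without the filter.

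Pairing of libraries by replicate number was not seen, which does not show that it was absent. Over 108 same-numbered pairs the median correlation of deviations was 0.0055 (lowest -0.226, 14 over 0.1), against 0.00078 for different numbers. Of 35 libraries 9 correlated best with their own number. With the replicate block 5 of the 10 genes were called in the age average (3870 of all 19332 genes), 3 on water with saline (683 of 19332) and 0 elsewhere. Bmp4 had the fewest counts of the 10 genes, 24 in its lowest library.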
